A study of Mus musculus with 9 samples.

Results

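A set of 10 genes of the transforming growth factor beta (TGF-beta) pathway was followed through single-cell RNA sequencing of mouse bone marrow: the ligand gene Tgfb1, the receptor genes Tgfbr1 and Tgfbr2, the Smad genes Smad2, Smad3, Smad4 and Smad7, and the genes Skil, Ski and Tgif1, whose proteins repress Smad-dependent transcription. They were chosen by gene symbol, and each of the 10 symbols had 1 row among the 31053 genes of the count matrices. The cells were LSK cells, sorted as lineage-negative, Sca1-positive and cKit-positive, a population that holds the blood stem cells and the early progenitors. All mice were C57BL/6. Young mice were 10-12 weeks old and aged mice were over 80 weeks old. CASIN mice were aged mice injected intraperitoneally with 25 mg/kg of CASIN, an inhibitor of the GTPase Cdc42, every 24 h for 4 days, and young and aged controls got the carrier cyclodextrin. Each group had 3 samples, each its own library of viably frozen and thawed cells. The labels name 2 sequencing batches. Replicates 1 and 2 of the young and of the CASIN group were in batch 1 with replicate 1 of the aged group, and the other 4 samples were in batch 2. The labels do not say whether a sample came from 1 mouse, so p-values measure the spread between these samples, which may be technical.

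TGF-beta is secreted in a latent form and, once released, brings the receptor kinases Tgfbr2 and Tgfbr1 together, which phosphorylate Smad2 and Smad3. These bind Smad4 and move to the nucleus to switch target genes on or off. Smad7 blocks the receptors and is itself a target, and Skil (SnoN) and Ski hold Smad complexes in a repressed state, with Skil transcribed in response to the signal as well. In bone marrow the pathway is known for keeping blood stem cells out of the cell cycle. The question of the comparison is whether the pathway's genes were lower after CASIN than in aged controls.

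The libraries held 19237354 to 42780953 unique molecular identifiers (UMIs, 1 per captured RNA molecule), and the filters kept 15856 of 32387 barcodes, 73.8% in batch 1 and 34.4% in batch 2. The median mitochondrial share of all barcodes was 2.73% to 4.61% in the libraries of batch 1 and 13.0% to 15.5% in those of batch 2. At most 16 barcodes were shared by any pair of libraries. UMIs were summed over cells per sample, and levels are given as CPM, a gene's share of the summed UMIs times 1000000. A sum over all LSK cells holds both the makeup of a sample and the level in each of its classes. HSC-1-like cells, a class described below, were 8.79% to 15.9% of the kept cells in young, 18.3% to 26.2% in aged and 20.03% to 31.03% in CASIN samples, and the part of this share in the differences over all LSK cells was not tested. Aged replicate 3 stood apart in the neutrophil and monocyte genes, which summed to 439 CPM there and to 32.7 to 105 CPM in the other 8 samples. The sorted markers were present in every sample, Kit at 112 to 225 CPM and Ly6a, which encodes Sca-1, at 87.9 to 186 CPM. Of the genes whose proteins the sort removes, Cd8a and Cd5 reached at most 0.05 and 1.36 CPM. Itgam, which encodes the removed Cd11b, was found in every sample, at 3.59 to 10.8 CPM.

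All 10 genes were higher in batch 2 than in batch 1, and for each of them this step exceeded its differences between groups over all LSK cells. In edgeR's quasi-likelihood test of the batch term the 10 genes passed an adjusted p of 0.05, against 36.2% of all genes tested that were higher in batch 2. Skil stood at 25.5 to 54.6 CPM in the 5 samples of batch 1 and at 458 to 679.8 CPM in the 4 samples of batch 2, a log2 fold change of 3.66 (SE 0.12). The next in size were Ski with 2.53 (SE 0.10) and Smad7 with 1.86 (SE 0.16), and the smallest was Smad2 with 0.70 (SE 0.07). The batches did not overlap in any of the 10 genes, and how many of all genes did so was not counted. In either direction edgeR called 71.0% of all genes tested between the batches. Genes of the immediate early and handling response moved the other way, with a summed level over the 15 genes of the list of 5184 to 9399.7 CPM in batch 1 and 1919 to 4783 CPM in batch 2. The part of the mitochondrial share and of handling in the step of the 10 genes was not tested. Every log2 fold change between groups below comes from a fit with the batch as a term, and differences within a batch are log2 ratios of mean CPM. Each group had 1 or 2 samples per batch, so groups that do not overlap within a batch say little about a difference. How many of all genes had groups apart in this way was not counted.

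**Figure D1:**
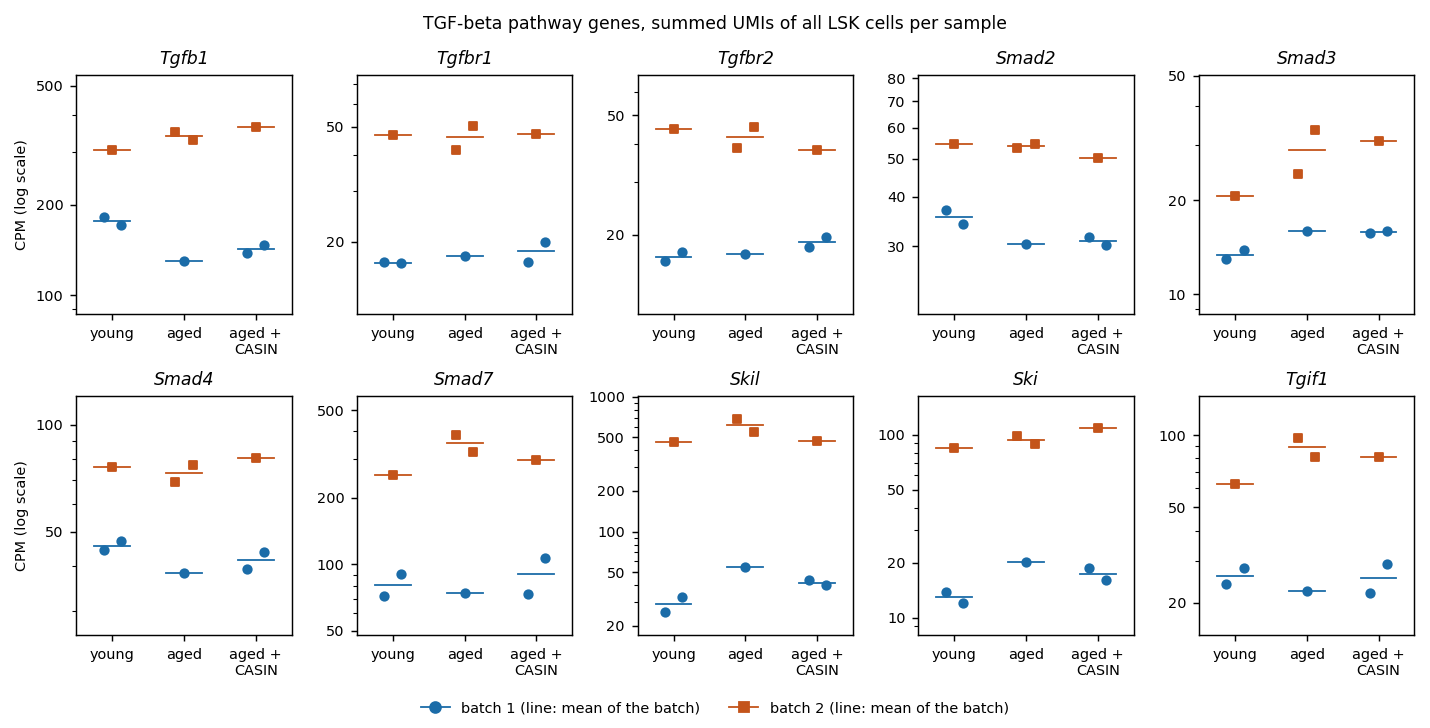
Level of each of the 10 genes in all LSK cells (CPM, log scale), with 1 point per sample, circles for batch 1, squares for batch 2 and a line at the mean of each group within a batch. Every square lies above every circle of its gene, and within both batches the aged points of Skil lie above the young ones.

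Of the 10 genes, Skil was the one called higher with age over all LSK cells. It stood at 25.5 and 32.8 CPM in young replicates 1 and 2 and at 54.6 CPM in aged replicate 1, all in batch 1. In batch 2 it stood at 458 CPM in young replicate 3 and at 679.8 and 551 CPM in aged replicates 2 and 3. The aged samples lay above the young samples of their own batch, while over both batches the groups overlapped. Aged over young, the log2 fold change was 0.69 (SE 0.14, edgeR adjusted p = 0.0315), with 0.90 within batch 1 and 0.42 within batch 2. It was 1 of 10 genes called, against 3.62% of the 13948 genes tested that were called higher in aged samples. The adjusted p rose above 0.05 without young replicate 1 or 2, without aged replicate 1 or 2 and without CASIN replicate 1, with log2 fold changes of 0.56 to 0.90 over all samples left out in turn. It also rose above 0.05 with only the 2 groups in the fit (log2 fold change 0.67), at a mitochondrial limit of 5% (0.60), with a replicate block (0.64) and without the batch term (1.33). Without aged replicate 3, Skil kept its call with 0.78.

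The ligand and the receptors showed no difference with age that passed the test with all samples. Tgfb1 stood at 182 and 171 CPM in the young and 129.6 CPM in the aged sample of batch 1. In batch 2 it stood at 306 CPM in the young sample and at 349 and 329 CPM in the aged samples. The aged samples were thus lower than the young in batch 1 and higher in batch 2, with log2 ratios of -0.45 and 0.15, and the difference between these effects was 0.61 (SE 0.16) but did not pass the test (edgeR adjusted p = 0.0794). Its log2 fold change was -0.18 over both batches, and without young replicate 3, the 1 young sample of batch 2, it was -0.44 and called (edgeR adjusted p = 0.0297), as was -0.33 for CASIN over young (adjusted p = 0.0376, with all samples -0.14). Tgfbr1, the kinase that phosphorylates the Smads, lay between 16.9 and 20.1 CPM in batch 1 and between 41.5 and 50.4 CPM in batch 2 over all groups. Tgfbr2, which binds the ligand, lay between 16.3 and 19.6 CPM and between 38.4 and 45.6 CPM. Their log2 fold changes of aged over young were 0.04 (95% interval -0.21 to 0.29) and 0.02 (-0.25 to 0.28).

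Among the Smads, Smad3 had the largest positive difference with age over all LSK cells, 0.35 on the log2 scale (SE 0.15), without passing the test (edgeR adjusted p = 0.197). Smad3 and Smad2 carry the signal from the receptors. Smad2 and the common partner Smad4 had log2 fold changes of -0.11 (SE 0.09) and -0.16 (SE 0.10). Smad7, the inhibitory Smad, stood at 71.7 and 90.3 CPM in the young and 74.4 CPM in the aged sample of batch 1, and at 253 CPM in the young and 387 and 324 CPM in the aged samples of batch 2. Its groups overlapped in batch 1 and not in batch 2, and its log2 fold change was 0.23 (SE 0.20, edgeR adjusted p = 0.532). The annotation has a gene on the opposite strand that overlaps Smad4, so its level is less certain if reads were counted without strand.

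The repressor Ski stood at 13.8 and 12.0 CPM in the young and 20.1 CPM in the aged sample of batch 1, and at 85.3 CPM in the young and 98.5 and 89.6 CPM in the aged samples of batch 2. Within each batch the aged samples lay above the young, and the log2 fold change of 0.37 (SE 0.12) did not pass the test (edgeR adjusted p = 0.116). Tgif1, a homeodomain repressor that binds Smad2 and Smad3, had a log2 fold change of 0.17 (SE 0.18), with -0.21 within batch 1 and 0.51 within batch 2. In the test of whether the effect of age differed between the batches, none of the 10 genes was called, against 2.68% of all genes called in either direction. An unadjusted p under 0.05 was found there for 3 of the 10, against 2709 of all 14468 genes.

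CASIN and aged samples were compared next. None of the 10 genes was called over all LSK cells, and edgeR called 0.00% of all genes tested, 0 of 13948 with 452 at an unadjusted p under 0.05, while DESeq2 called 1. Skil stood at 43.6 and 39.8 CPM in CASIN replicates 1 and 2, below the 54.6 CPM of aged replicate 1 of the same batch. In batch 2 it stood at 473 CPM in CASIN replicate 3, below the 679.8 and 551 CPM of aged replicates 2 and 3. The groups did not overlap within either batch, where 1 sample of a group stood against 2 of the other. How many of all genes did so was not counted. The log2 fold change of Skil for CASIN over aged was -0.35 (SE 0.14, 95% interval -0.67 to -0.02). Its unadjusted p was 0.0384 and its adjusted p 0.991, both from edgeR, with log2 ratios of -0.39 within batch 1 and -0.38 within batch 2. It was the 1 gene of the 10 with an unadjusted p under 0.05. The other 9 genes had log2 fold changes from -0.07 to 0.09, with 95% intervals that together ran from -0.50 to 0.38. In the test of whether the effect of CASIN differed between batches, 0.00% of all genes and none of the 10 were called by edgeR, with 1849 genes and none of the 10 at an unadjusted p under 0.05.

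CASIN and young samples differed in none of the 10 genes over all LSK cells at the adjusted threshold, against 4.09% of genes called higher by edgeR. An unadjusted p under 0.05 was found for 3 of the 10, against 3294 of all 13948 genes. The 3 were Ski with a log2 fold change of 0.40 (SE 0.12), Smad3 with 0.35 (SE 0.14) and Skil with 0.34 (SE 0.14). The comparison shares its young samples with that of aged over young and its CASIN samples with that of CASIN over aged, so the 3 comparisons do not bear on each other as separate evidence.

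**Figure D2:**
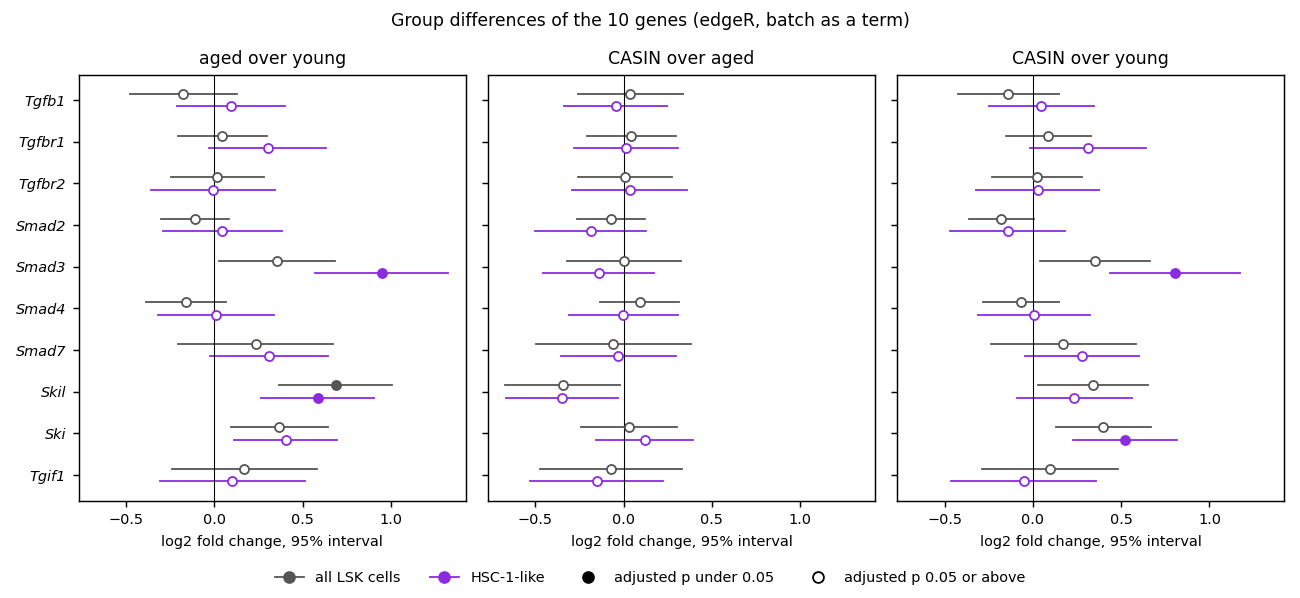
Log2 fold change of each of the 10 genes in the 3 comparisons with its 95% interval, grey for all LSK cells and violet for HSC-1-like cells, filled where the adjusted p was under 0.05. Filled points are those of Skil in aged over young, and in HSC-1-like cells of Smad3 in aged over young and of Smad3 and Ski in CASIN over young, and none is filled in CASIN over aged.

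Cells were clustered and named from marker genes that exclude the 10, and the cluster with the markers of the study's most quiescent stem cells, called HSC-1-like, held 3003 cells, 189 to 750 per sample. In these cells Smad3 was higher in both aged groups than in young samples. It stood at 12.8, 12.7 and 13.9 CPM in young replicates 1, 2 and 3, at 21.4, 26.0 and 33.4 CPM in the aged and at 19.7, 20.2 and 26.4 CPM in the CASIN replicates. No aged or CASIN sample overlapped with a young one, in either batch or over both, while the sums behind these levels were only 30 to 183 UMIs. How many of all genes lacked such overlap was not counted. Aged over young, the log2 fold change was 0.95 (SE 0.18, edgeR adjusted p = 0.00432), with 0.75 within batch 1 and 1.10 within batch 2. CASIN over young, it was 0.81 (SE 0.17, edgeR adjusted p = 0.00665), with 0.65 and 0.93 within the batches. CASIN and aged samples differed by -0.14 (SE 0.15, 95% interval -0.45 to 0.17).

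Skil in HSC-1-like cells stood at 37.1 and 50.3 CPM in the young, 71.7 CPM in the aged and 61.1 and 54.9 CPM in the CASIN samples of batch 1. In batch 2 it stood at 626 CPM in the young, 926 and 670.2 CPM in the aged and 576 CPM in the CASIN sample. CASIN samples thus lay between young and aged in batch 1 and below both in batch 2. The log2 fold change was 0.58 for aged over young (SE 0.15, edgeR adjusted p = 0.0281) and -0.35 for CASIN over aged (SE 0.15, edgeR unadjusted p = 0.0329, adjusted p = 1.00). Ski stood at 19.2 and 18.8 CPM in the young, 26.2 CPM in the aged and 31.3 and 31.1 CPM in the CASIN samples of batch 1. In batch 2 it stood at 125 CPM in the young, 161 and 132 CPM in the aged and 143 CPM in the CASIN sample. Its log2 fold change was 0.52 for CASIN over young (SE 0.14, edgeR adjusted p = 0.0233), with 0.72 within batch 1 and 0.18 within batch 2, and 0.40 for aged over young (SE 0.14, edgeR adjusted p = 0.0977).

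In HSC-1-like cells the genes called were thus 2 of 10 for aged over young, against 5.00% of the 11527 genes tested, and 2 of 10 for CASIN over young, against 7.05%. Between CASIN and aged samples none of the 10 and 0.00% of all genes were called by edgeR, 0 of 11527 with 403 at an unadjusted p under 0.05, while DESeq2 called 10 genes and none of the 10 followed here. Tgfb1, the receptors, Smad2, Smad4, Smad7 and Tgif1 had log2 fold changes of aged over young from -0.01 to 0.31 in HSC-1-like cells, and none passed the test. The call of Skil was lost without young replicate 1 or 2 and without aged replicate 1 or 2. The call of Smad3 in CASIN over young was lost without CASIN replicate 3, and that of Ski without young replicate 1 or 2 or CASIN replicate 1 or 2. Without these samples the log2 fold changes were 0.45 to 0.62 for Skil, 0.75 for Smad3 and 0.46 to 0.49 for Ski. Further settings ended these calls: no batch term for all of them, with 1.28 for Skil, a mitochondrial limit of 5% for Skil (0.57) and for Smad3 in aged and CASIN over young (0.87 and 0.79), the replicate block for Skil (0.46), DESeq2 for Ski (0.52), and cells thinned to 4000 UMIs for Smad3 (0.81 and 0.72) and Ski (0.29).

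**Figure D3:**
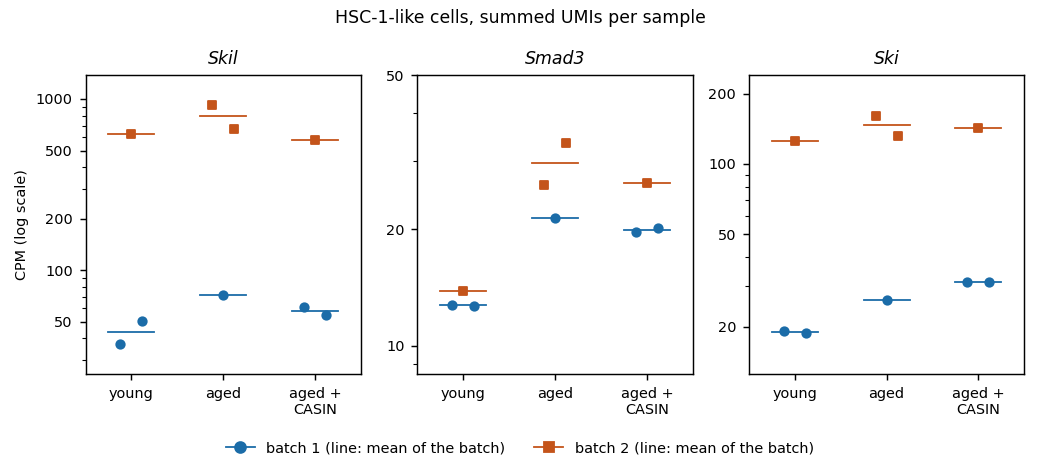
Level of Skil, Smad3 and Ski in HSC-1-like cells (CPM, log scale), 1 point per sample, circles for batch 1 and squares for batch 2, lines at the mean of each group within a batch. The 3 young samples of Smad3 lie between 12.7 and 13.9 CPM and the 6 aged and CASIN samples between 19.7 and 33.4 CPM.

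The sequence in front of the start of Smad3 and Ski, the members called in HSC-1-like cells of CASIN over young samples, is shown from RefSeq (GRCm38.p6, both genes on the minus strand). Smad3 lies on chromosome 9 and Ski on chromosome 4. Windows from 250 bases before to 50 after a start were at hand for 6 of the 10 genes, 11 windows in all. The lines run 5′ to 3′ on the gene's strand and leave out the transcribed bases, 250 bases at chr9:63757995-63758244 and 193 bases at chr4:155222593-155222785. Capitals mark GC boxes, the motif GGGCGG on either strand.
Smad3: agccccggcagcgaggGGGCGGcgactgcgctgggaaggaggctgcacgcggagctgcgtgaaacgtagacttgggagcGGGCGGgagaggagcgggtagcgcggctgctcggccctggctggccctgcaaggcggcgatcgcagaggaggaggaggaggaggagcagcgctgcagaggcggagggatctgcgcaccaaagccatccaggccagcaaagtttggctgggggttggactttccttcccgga
Ski: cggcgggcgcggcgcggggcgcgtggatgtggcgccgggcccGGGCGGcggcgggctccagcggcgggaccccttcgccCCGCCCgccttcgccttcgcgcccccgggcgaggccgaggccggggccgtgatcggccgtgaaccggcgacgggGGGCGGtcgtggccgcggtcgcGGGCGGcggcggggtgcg
The stretches held 2 and 4 GC boxes, a motif that 35.7% of 32851 mouse promoter windows hold at least once. Neither held the Smad-binding element CAGAC on either strand, which 49.6% of the windows hold. Of the 6 genes with a window, 3 had CAGAC in at least 1 window, and none had the palindrome GTCTAGAC, held by 0.213% of windows, or the AP-1 motif TGACTCA, held by 5.2%. The GC content of the 300-base windows was 67.7% for Smad3 and 85.3% for Ski, against a median of 52.7%. Such a match is a run of letters and does not show that a protein binds there.

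The rise of Skil with age was then followed through 11 classes of LSK cells that had at least 20 cells in every sample. Aged samples were above young in the fit of all 11 classes, and 5 classes passed the test. Besides HSC-1-like cells these were HSC-3-like cells with a log2 fold change of 0.74 (SE 0.17), MPP2-like progenitors with 0.87 (SE 0.20), MPP3-like progenitors with 0.66 (SE 0.15) and a cluster rich in Lars2 with 1.01 (SE 0.22), with edgeR adjusted p-values of 0.0367, 0.0365, 0.0488 and 0.0188. The Lars2-rich cluster of 474 cells had the highest score for the study's MPP1 markers, but its leading genes were Cxcl12, Ibsp and Cxcl14 and its median UMI count was low, so it was given no cell type name. Among all genes of these 4 classes, 1.33%, 1.43%, 1.20% and 1.26% were called higher with age. In the Lars2-rich cluster Skil stood at 53.9, 54.1 and 759 CPM in young replicates 1, 2 and 3, at 166, 1444 and 1148 CPM in aged and at 79.9, 108 and 841 CPM in CASIN replicates. The aged samples lay above the young and CASIN samples of their own batch.

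In the other 6 classes the log2 fold change of Skil with age was 0.34 in HSC-2-like cells (5.08% of all genes called higher), 0.38 in Ccl3-high LMPP-like (0.349%), 0.60 in Dntt-high LMPP-like (0.00%), 0.51 in CC-1-like (0.185%), 0.63 in CC-2-like (0.429%) and 0.40 in the Hist1h1c-rich cluster (0.141%). None passed the edgeR test in these classes, although 10 of the 11 classes had an unadjusted p under 0.05. Of all genes tested, 571 of 8244 had such a p in Dntt-high LMPP-like cells, the smallest share of the 11 classes. The largest was 2418 of 11527 in HSC-1-like cells. How many genes reached it in as many classes was not counted. The direction of Skil was the same in both batches in 9 classes, and the exceptions were HSC-2-like cells (0.61 in batch 1 and -0.08 in batch 2) and Ccl3-high LMPP-like cells (-0.0034 and 0.44). HSC-2-like cells numbered 27 to 48 per sample in batch 2 and 119 to 235 in batch 1.

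CASIN samples were below aged samples in Skil in all 11 classes, with log2 fold changes from -0.59 in the Lars2-rich cluster to -0.17 in the Hist1h1c-rich cluster. An unadjusted p under 0.05 was found in 8 classes and an adjusted one in none, with the lowest adjusted p of 0.396 in CC-2-like cells (edgeR, log2 fold change -0.58, SE 0.16). Of all genes tested, 323 of 10204 had such an unadjusted p in HSC-2-like cells, the smallest share of the 11 classes. The largest share was 796 of 10012 in CC-2-like cells. How many genes reached it in as many classes, or were below 0 in all 11, was not counted. The direction of Skil was the same in both batches in 8 classes. The classes hold cells of the same 9 samples, and classes taken from different clustering resolutions can share cells, so these counts are not separate observations of CASIN.

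**Figure D4:**
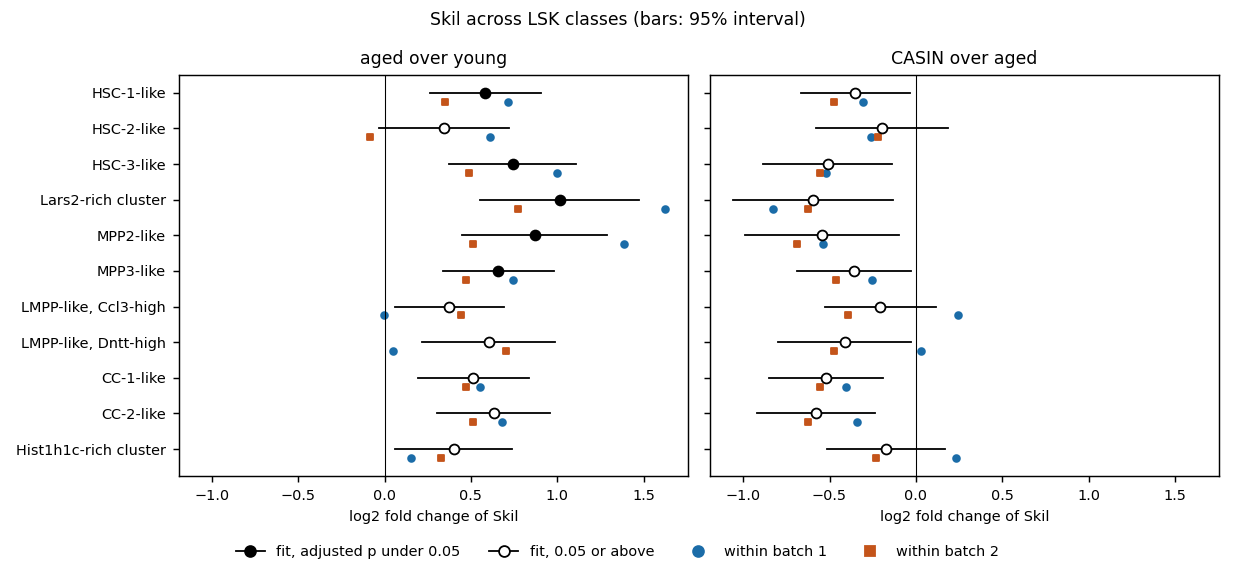
Log2 fold change of Skil in 11 classes of LSK cells for aged over young and CASIN over aged, with the fitted value and its 95% interval in black (filled where the adjusted p was under 0.05) and the ratio within each batch in colour. The 11 fitted values of aged over young lie above 0, from 0.34 to 1.01, and those of CASIN over aged below 0, from -0.59 to -0.17.

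Smad7 rose with age in the Lars2-rich cluster. It stood at 59.3 and 72.2 CPM in the young, 131 CPM in the aged and 137 and 108 CPM in the CASIN samples of batch 1, and at 374 CPM in the young, 691 and 662 CPM in the aged and 474 CPM in the CASIN sample of batch 2. Within each batch the aged samples lay above the young, with a log2 fold change of 0.92 (SE 0.21, edgeR adjusted p = 0.0228) from sums of 20 to 300 UMIs. Smad7 and Skil are both known to be transcribed in response to TGF-beta, and the part of the signal in their values here was not tested. The fitted differences of Smad7 and Tgif1 with age were above 0 in all 11 classes, but their direction was the same in both batches in only 4. Smad2 and Smad4 were below 0 in 7 and 9 classes, and none of these passed the test.

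The study followed the response to TGF-beta along trajectories of single cells from its HSC-1 class to its HSC-2 and MPP1 classes. Here differences between classes in the effect of age or CASIN were tested on summed UMIs instead, with the sample as a block. The Lars2-rich cluster was used in the place of MPP1, although it was given no cell type name. These tests are another measure and do not test the study's trajectories. Between the Lars2-rich cluster and HSC-1-like cells none of the 10 genes differed in the effect of age, against 0.190% of all genes called by edgeR, or in the effect of CASIN, against 0.0904%. Between HSC-2-like and HSC-1-like cells none differed either, against 0.627% for age and 0.0435% for CASIN. Skil came nearest in both, with an effect of age larger by 0.45 (SE 0.19, edgeR unadjusted p = 0.0160, adjusted p = 0.560) in the Lars2-rich cluster and smaller by 0.30 (a difference of -0.30, SE 0.14, edgeR adjusted p = 0.706) in HSC-2-like cells than in HSC-1-like cells. In the effect of CASIN the differences of Skil were -0.18 (SE 0.18) and 0.15 (SE 0.14).

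Levels across classes were described for each gene as the log2 ratio of a class to all LSK cells of the same sample, averaged over the 9 samples. They are given without a test, since the clusters were made from the same cells and 5 of the 10 genes (Tgfb1, Smad7, Skil, Ski and Tgif1) were among the genes used for integration. Skil was highest in the Lars2-rich cluster (1.04 ± 0.30, SD, n = 9) and next in HSC-1-like cells (0.43 ± 0.10), above the sample's own LSK level in 9 of 9 samples in both. It was lowest in Dntt-high LMPP-like cells (-0.85 ± 0.39), below it in 9 of 9. Ski followed the same end points, with 0.91 ± 0.52 in the Lars2-rich cluster, 0.58 ± 0.18 in HSC-1-like and -1.39 ± 0.49 in Dntt-high LMPP-like cells.

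Smad3 was highest in the Lars2-rich cluster (1.10 ± 0.30) and next in Dntt-high LMPP-like cells (0.58 ± 0.24), with 9 of 9 samples above the LSK level in both, and lowest in MPP2-like cells (-0.56 ± 0.33). Smad7 was highest in Dntt-high LMPP-like cells (0.70 ± 0.65), though with 1.24 in batch 1 and only 0.03 in batch 2. The receptors were highest in the Lars2-rich cluster, Tgfbr1 with 0.92 ± 0.47 and Tgfbr2 with 0.62 ± 0.61. These rested on sums of only 4 to 57 and 4 to 48 UMIs per sample. In batch 1 Tgfbr2 stood higher in the Hist1h1c-rich cluster (0.44) than in the Lars2-rich cluster (0.39). Over all samples Tgfb1 was highest in MPP2-like cells (0.33 ± 0.21), while in batch 1 these ranked 5 with 0.19 and CC-2-like and CC-1-like cells both stood at 0.37. Smad4 spanned -0.26 to 0.47 and Smad2 -0.38 to 0.17 over the 11 classes, with Smad2 below the LSK level in 9 of 9 samples of HSC-1-like cells. Ordered by level, 11 of the 100 pairs of neighbouring classes differed by more than 1 SD of the paired difference over samples, so most neighbours in these orders were not apart. The highest class over all samples was also the highest within both batches for 5 of the 10 genes, Tgfbr1, Smad3, Smad4, Skil and Ski.

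**Figure D5:**
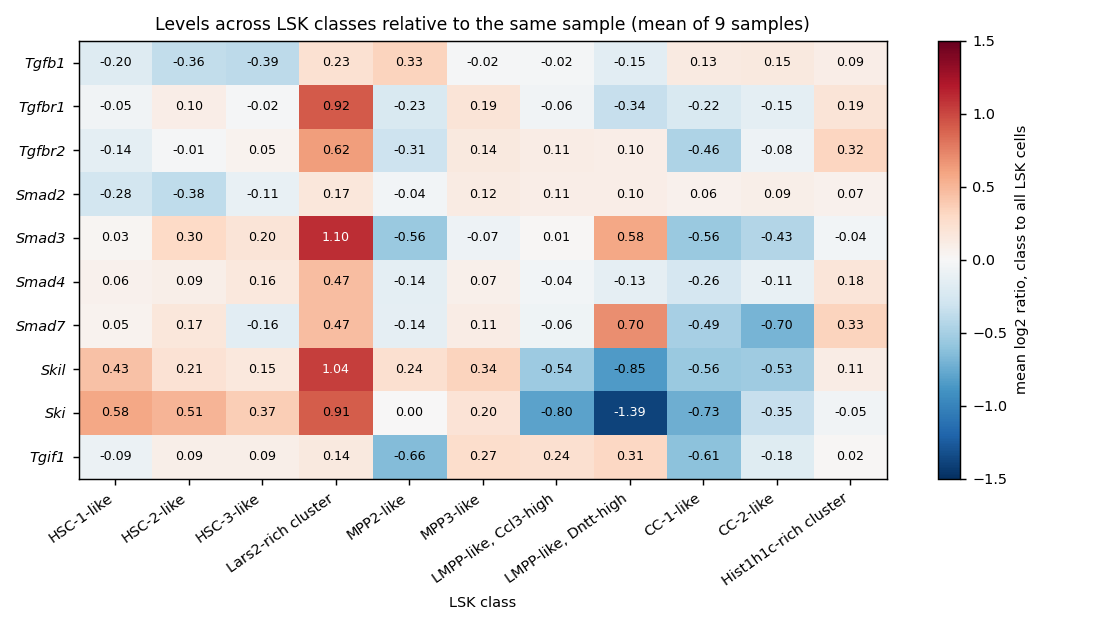
Mean log2 ratio of each gene's level in a class to its level in all LSK cells of the same sample (9 samples), red for higher and blue for lower. The row of Skil runs from 1.04 in the Lars2-rich cluster to -0.85 in Dntt-high LMPP-like cells.

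The other genes of the pathway were taken as 6 lists. The genes named from them here for HSC-1-like cells, and those that make up a count of calls, were chosen after their values were seen. The list of transcriptional targets does not separate genes that TGF-beta switches on from those it switches off. Counts, medians and sums of that list thus do not measure the strength of the signal. Of 15 transcriptional targets of TGF-beta, 14 were tested and 5 rose with age over all LSK cells, against 3.62% of all genes called higher, with a list median of 0.97 against 0.02 for all genes. They were the cell cycle inhibitor Cdkn1c (1.32, SE 0.19), the differentiation inhibitor Id2 (1.05, SE 0.20), Klf10 (0.66, SE 0.14), and the AP-1 and stress factors Junb (1.30, SE 0.25) and Atf3 (1.51, SE 0.27), with edgeR adjusted p-values from 0.0105 to 0.0335. None of the 5 was called without young replicate 1, without young replicate 2 or without a batch term, and 1 was called with the replicate block, with only the 2 groups in the fit or without young replicate 3, and 2 without CASIN replicate 1. In HSC-1-like cells Cdkn1c had a log2 fold change of 0.42 (SE 0.16, edgeR adjusted p = 0.153), and in every sample its level there was above that over all LSK cells. HSC-2-like cells were only 27 to 48 per sample in batch 2, against 119 to 235 in batch 1. The effect of age on Cdkn1c was larger by 1.39 (SE 0.21) in HSC-2-like than in HSC-1-like cells. The part of the makeup of the samples in its rise over all LSK cells was not tested. Junb and Atf3 also belong to the stress and immediate early response. That list, of 15 genes, had 6 called higher with age, against the same 3.62%: Fosb, Jund, Egr1, Ier2, Nr4a1 and Ppp1r15a. Its part in the change of the targets was not tested.

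The summed level of the 15 targets was 1124, 1288 and 968 CPM in young replicates 1, 2 and 3, 1973, 2207 and 1529 CPM in the aged and 1709, 1703 and 1399 CPM in the CASIN replicates. All aged and all CASIN samples lay above all young ones, and the exact permutation test gave a two-sided p of 0.1 for both, the smallest that 3 samples against 3 allow. CASIN and aged samples overlapped over both batches (exact permutation p = 0.3). These permutations take no account of the batch, and within batch 1 the CASIN sums lay below the aged sum, and within batch 2 below both aged sums. The same exact permutation test gave p of 0.2 to 0.9 for aged over young in the other pathway lists. For CASIN over young it gave 0.5 to 0.9 in them. The list of the immediate early and handling response had 0.6 and 0.4 in this test.

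Of the receptors and co-receptors, 10 of 11 were tested and 1 rose with age (3.62% of all genes), Bmpr1a, a receptor for bone morphogenetic proteins, a branch of the same family. It stood at 0.60, 0.51 and 1.58 CPM in the young, 8.22, 14.7 and 18.8 CPM in the aged and 9.63, 6.49 and 20.03 CPM in the CASIN replicates, with log2 fold changes of 3.64 (SE 0.22) for aged over young and 3.77 (SE 0.22) for CASIN over young. The groups of aged and CASIN mice overlapped and lay above all young samples. Of the Smads and adaptors, 8 of 9 were tested and Zfyve9 (SARA), which brings Smad2 and Smad3 to the receptors, was called higher (1.44, SE 0.34, edgeR adjusted p = 0.0484). That call was lost under 7 of 10 other settings and with 8 of the 9 samples left out in turn, all but young replicate 3, and the value was 0.80 without aged replicate 1. Of the ligands and latent complex proteins, the receptor inhibitors and the nuclear partners, none of 10, 12 and 10 genes tested was called by edgeR.

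For CASIN over young, against 4.09% of all genes called higher, 2 of 10 receptors rose over all LSK cells, Bmpr1a and the co-receptor Tgfbr3 (1.53, SE 0.36), 2 of 8 Smads and adaptors, Smad1 (0.39, SE 0.09) and Zfyve9 (1.69, SE 0.33), and 2 of 14 targets, Cdkn1c (1.34, SE 0.19) and Id2 (0.87, SE 0.19). Without young replicate 1 or 2 none of these but Bmpr1a was called. The call of Smad1 was lost under 5 of 10 other settings and with 7 of 9 samples left out, and those of Tgfbr3 and Id2 with 6 of 9. Between CASIN and aged samples, none of the genes tested in the 6 lists was called by edgeR. The median of the targets was -0.14 against 0.00 for all genes. An unadjusted p under 0.05 was found for 3 of the 14, against 452 of all 13948 genes.

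In HSC-1-like cells 6 of 14 targets rose with age, against 5.00% of all genes: Cdkn1a, a further cell cycle inhibitor (0.97, SE 0.17), Hes1 (1.00, SE 0.19), Id2, Klf10, Junb and Atf3. The receptors Bmpr1a (2.87, SE 0.29) and Tgfbr3 (0.93, SE 0.23), the latent TGF-beta binding protein Ltbp4 (1.64, SE 0.44), the TGF-beta binding Vasn (1.15, SE 0.30) and Zfyve9 (1.00, SE 0.29) were called higher with age as well. Without aged replicate 1, 3 of the targets were called, and 3 at a mitochondrial limit of 5%. The call of Zfyve9 was lost with each of the 9 samples left out and under 8 of 11 other settings, that of Ltbp4 with 5 samples and under 5 settings, and that of Tgfbr3 with 4 and under 4. Vasn was lost under 5 settings and without young replicate 2 or 3 or aged replicate 3, with 0.10 at a mitochondrial limit of 5% and 0.36 without young replicate 3. In CASIN over aged the targets had a list median of -0.02 against 0.01 for all genes, and none was called by edgeR. An unadjusted p under 0.05 was found for 2 of them, against 403 of all 11527 genes. Without a filter on low counts edgeR called Junb lower (-0.44) and the ligand activator Thbs1 higher (0.80). DESeq2 called Ctgf with 22.9 (SE 4.08), a value too large for a ratio of measured levels, so it is not read as a rise.

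The study followed 6 genes for the response to TGF-beta along its trajectory towards the HSC-2 class and 6 towards its MPP1 class. The values here are summed levels, another measure. The genes of the study were chosen on these samples and are no independent evidence of direction. Beside Skil and Smad7, they are Hspa5, an endoplasmic reticulum chaperone, Lemd3, an inner nuclear membrane protein that binds Smads, Zfp703, the coactivator Crebbp, the protease Furin, which cuts the ligand's precursor, Mpp5 and Vasn. Over all LSK cells Skil was the only one called for aged over young, and for CASIN over aged none was called by edgeR in all LSK or HSC-1-like cells, with Skil the 1 gene at an unadjusted p under 0.05 over all LSK cells. The 1 exception among the settings was Hspa5, called lower in CASIN than in aged HSC-1-like cells without a filter on low counts (-0.45, edgeR adjusted p = 0.0160), against -0.47 (adjusted p = 1.00) with the filter. For CASIN over aged the log2 fold changes over all LSK cells were -0.58 (SE 0.27) for Hspa5, -0.07 for Lemd3, -0.13 for Zfp703, 0.02 for Crebbp, -0.01 for Furin, 0.07 for Mpp5 and -0.05 for Vasn. Hspa5 stood at 355 CPM in aged replicate 1 and at 332 and 225 CPM in the CASIN samples of batch 1, and at 1373 and 2040 CPM in the aged and 1188 CPM in the CASIN sample of batch 2. The CASIN samples lay below the aged within each batch.

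Over all LSK cells the handling-response list moved with Skil in both comparisons. Its summed level within batch 1 was 5184 and 5636 CPM in the young, 9399.7 CPM in the aged and 8842 and 8353 CPM in the CASIN samples, and within batch 2 it was 1919 CPM in the young, 4783 and 3362 CPM in the aged and 2431 CPM in the CASIN sample. As for Skil, the aged samples were the highest of their batch. In CASIN over aged, none of its 15 genes was called by edgeR and the list median was -0.66. An unadjusted p under 0.05 was found for 8 of them, against 452 of all 13948 genes. In HSC-1-like cells the list was also higher in aged than in young samples within each batch. CASIN samples there stood at 13111 and 12708 CPM, above the 11967 CPM of the aged sample of batch 1, where Skil was lower in CASIN, and at 2562 CPM, below the 4099 and 2878 CPM of the aged samples of batch 2. The part of handling in the differences of Skil was not tested.

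Marker lists of other cell types were read in the same way. Over all LSK cells, 1 of 6 platelet genes tested, Clec1b, and 1 of 4 T and NK cell genes tested, Klrb1c, were called higher in aged and in CASIN than in young samples, with log2 fold changes of 3.19 (SE 0.53) and 3.59 (SE 0.37) for aged over young. The platelet list summed to 13.7 to 15.8 CPM in young, 12.9 to 40.7 CPM in aged and 17.3 to 33.4 CPM in CASIN samples, and the T and NK cell list to 1.68 to 6.95, 4.74 to 19.0 and 7.27 to 15.5 CPM. Single genes of these lists differed: Ppbp, Cd3d and Cd3e were below 1 CPM in every sample, while Clec1b and Klrb1c were called. No 1 of these genes stands for its list. None of the B cell, red cell, neutrophil and monocyte or stromal genes tested was called by edgeR over all LSK cells in the 3 comparisons. At an unadjusted p under 0.05 these lists had 4 genes for aged over young, 2 for CASIN over aged and 2 for CASIN over young. Of all 13948 genes, 3054, 452 and 3294 had such a p in these comparisons. In HSC-1-like cells edgeR called Kdr of the stromal and endothelial list higher in CASIN than in young samples (1.44, adjusted p = 0.0340). Ms4a6c of the neutrophil and monocyte list was called lower there (-1.03, edgeR adjusted p = 0.0495). Of all genes, 11.8% were called in either direction, and both genes were named after their values were seen. In HSC-1-like cells without a filter on low counts, edgeR called the stromal gene Cxcl12 higher in CASIN than in aged samples (4.73, SE 0.38). The stromal list there summed to 8.18 to 146 CPM in young, 10.7 to 15.9 CPM in aged and 16.3 to 61.9 CPM in CASIN samples. The part of other cell types in the values of the 10 genes was not tested.

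The genes whose pattern was most like that of a member were found over 99 values, 11 classes in each of 9 samples, on the log2(CPM + 1) scale after removing the mean of each batch, among 5737 genes. The 99 points share libraries, depth and groups, so the correlations are a description. Skil was most like Ndel1, Diaph1 and Adgrg1 (Pearson's r = 0.84 for each), and Ski most like Pdzk1ip1, Nfat5 and Aplp2 (r = 0.86 for each). Smad3 was most like Akap13 (r = 0.72) and Tgfb1 most like Mlec (r = 0.67). Pdzk1ip1, Adgrg1 and Akap13 were among the marker genes that named clusters.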

How the data were processed

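Single-cell RNA sequencing (10x Genomics 3′ v3) was made of LSK cells, with 3 samples each of young, aged and CASIN mice. The authors mapped reads to mm10 and counted UMIs per gene and barcode with Cell Ranger 3.1.0 per the labels, and deposited these counts without normalization. Whole molecules were counted by UMI, so counts are limited by capture and depth. The median UMIs per kept cell were 9531.5 to 14622 in the libraries of batch 1 and 10087 to 13058 in those of batch 2.

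Barcodes with more than 10% mitochondrial UMIs, more than 6000 genes, UMIs outside 1000 to 40000 or a residual over 0.4 when log genes were regressed on log UMIs were removed, and genes had to be found in at least 3 cells. Cells were integrated (3000 features, 30 dimensions) and clustered on 35 principal components in Seurat 5.3.0 (R 4.3.3) at resolution 0.4. MPP2-like and MPP3-like cells were taken from resolution 0.8, since 1 cluster of 0.4 mixed both. Clusters were named from the study's markers without the 10 genes. Scrublet (scanpy 1.11.5) called 71 cells (0.448%), too few to count as a working call, so doublets were kept.

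UMIs were summed per sample and class and tested with edgeR 4.0.16 (quasi-likelihood, TMM, filterByExpr, all 9 samples, batch as a term). P-values were adjusted over all genes tested by the Benjamini-Hochberg method, and the threshold was 0.05. SE, unadjusted p and 95% intervals come from the same fit. All 10 genes passed the filter in every class fitted. Sums of a list per sample were compared by an exact permutation test (two-sided). The edgeR step was also run on counts simulated from its own fitted spread with known changes added. This does not test how often it errs on these samples. Tables and figures were made in Python 3.11.15 with numpy 2.4.6, pandas 2.3.3 and scipy 1.17.1.

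The 10 genes and the gene lists were chosen with earlier results of these data known, and the calls of classes and lists are not independent of them. Named were the 10 genes, all genes of the study's lists, list genes called for CASIN over aged, up to 3 called genes per list in the comparisons with young samples that moved the same way in both batches, and per member the 3 genes with the highest Pearson's r. Alternatives were DESeq2 1.42.0 or its size factors, no filter, no batch term, a replicate block, only the 2 groups compared, a mitochondrial limit of 5%, Scrublet calls left out, cells thinned to 4000 UMIs, resolution 0.8, clustering without TGF-beta genes, each sample left out, and, added after seeing the data, all barcodes without a cell filter. Surface-protein reads named in the labels were not used here.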

Additional observations from a re-analysis of the deposited data

Results flagged for a closer look

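None of the 10 genes differed in its effect between batches or classes at the adjusted threshold, and 11 results of other genes of the lists did, each by an edgeR test of the difference itself (an interaction term). They were 4 of 124 list genes tested for a batch difference in the effect of age, against 2.68% of all genes, 2 of 98 for the effect of CASIN in the Lars2-rich cluster, against 0.0904%, and 5 of 103 for the effect of age in HSC-2-like cells, against 0.627%. The other 3 such tests called none of the list genes by edgeR. The effect of age over all LSK cells, batch 2 minus batch 1, was -1.92 on the log2 scale for the co-receptor Tgfbr3 (SE 0.38, adjusted p = 0.0399). It was -3.12 for Col1a2, a stromal collagen gene, and 3.52 and 4.03 for the heat shock genes Hspa1b and Hspa1a. The effect of CASIN over aged in the Lars2-rich cluster minus that in HSC-1-like cells was -0.85 for Btg2 (adjusted p = 0.0093) and -0.79 for Jun, both immediate early genes. The effect of age in HSC-2-like minus HSC-1-like cells was 1.39 for the cell cycle inhibitor Cdkn1c (SE 0.21), 1.34 for Id1, 3.77 for Hspa1a, -0.62 for Btg2 and -0.52 for Ier3. Egr1, Fos and Jun are among the markers that named HSC-2-like cells, a class of 27 to 48 cells per sample in batch 2 and 119 to 235 in batch 1. These differences are values, and their causes were not tested.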

How the results depend on the processing

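Over the 10 genes, 1134 of 1170 values under other settings kept their side of the threshold, 30 lost a call and 6 gained one, and none that was called changed sign, while 147 values, none of them called, had the other sign. For aged over young in all LSK cells (1 gene called, Skil), 0 were called with only the 2 groups compared, without a batch term, with the replicate block and at a mitochondrial limit of 5%, and 2 (Skil and Ski) with all barcodes, a setting chosen after seeing the data. Leaving out samples gave 0 to 2. For aged over young in HSC-1-like cells (2 called), 0 were called without a batch term and at the limit of 5%, 1 with the replicate block (Smad3) and 1 with thinned cells (Skil), and 1 to 2 with a sample left out. For CASIN over young in HSC-1-like cells (2 called), DESeq2 called 1, no batch term 0, the limit of 5% 1 and thinned cells 0, and leaving out samples gave 1 to 2. For CASIN over young in all LSK cells (0 called), 1 (Ski) was called with only the 2 groups and with all barcodes, and 0 to 1 with a sample left out. For CASIN over aged, every setting and every sample left out gave 0 of the 10. The causes were not tested. A limit of 5% left 10781 cells. Among cells kept at the limit of 10%, the median mitochondrial share was above 5% in each library of batch 2. In the libraries of batch 1 it was at most 3.49%. The limit of 5% thus removed a larger part of the cells in batch 2 than in batch 1. In all LSK cells Skil was above the young level in aged samples under every setting, from 0.56 to 1.33 on the log2 scale, and lower in CASIN than in aged samples, from -1.22 to -0.24. The values of 1.33 and -1.22 came from the fit without a batch term. They hold the step between the batches as well, since the aged group had more of its samples in batch 2. The 1 called value that changed sign was that of Fosb for aged over young in HSC-1-like cells, -0.14 without a batch term.

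Genes called over the whole table moved more. For aged over young they were 577 in all LSK cells (0 to 1128 over the settings, 31 to 945 with a sample left out) and 860 in HSC-1-like cells (8 to 1299, and 228 to 833), and for CASIN over young 628 (0 to 1823, and 20 to 1584) and 1356 (15 to 1832, and 753 to 1411). For CASIN over aged in HSC-1-like cells, the 0 became 60 with no filter on low counts. Deviations of samples that share a replicate number correlated from -0.46 to 0.25, and those of samples with other numbers from -0.47 to 0.73. With 3 samples per group the fit ties these deviations, so they cannot tell whether the numbers pair samples. The replicate block pairs samples by number alone. Smad3 rested on sums of 30 to 183 UMIs in HSC-1-like cells, and with cells thinned Ski went from 0.52 to 0.29 in CASIN over young. The part of depth in the calls of both genes was not tested. The highest class was the same over all samples and within both batches for 5 of the 10 genes.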
